A study of Homo sapiens with 8 samples.

Results

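The genes described here are 10 genes known as targets of the transcription factor GATA2 in blood and mast cells, namely TAL1, LYL1, LMO2, RUNX1, HHEX, GFI1B, KIT, CD34, MS4A2 and HDC, out of 20037 protein-coding genes. They were chosen for that role, by name and with no threshold on a value of these lists. The members and the gene lists compared with them were, however, chosen with earlier results of these data known. Their shares beside those of all genes are therefore descriptions and were not tested. GATA2 binding was mapped by chromatin immunoprecipitation and sequencing in VCaP cells, an established line of human prostate cancer labelled as castrate-resistant, so that the question is which of these blood-lineage loci carry GATA2 in a prostate cancer cell. The untreated group has 2 precipitates, labelled non-treated in the sample titles and described as a DMSO control in the growth protocol. The JQ1 group has 2 precipitates from cells that received 1 µM JQ1, an inhibitor of the bromodomains of the BET family. Both groups spent 72 h in steroid-depleted medium, with treatment during the last 24 h. The 4 input samples have no separate list and enter only through the authors' peak calling. All lists come from 1 cell line, and the labels do not say whether replicates were separate cultures, so a p-value measures only the spread between these samples. Peak lists hold no expression, so neither the prostate identity of the cells nor the activity of any gene could be checked against RNA.

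GATA2 is a zinc-finger protein that binds the letters GATA. In blood stem and progenitor cells it occupies enhancers together with TAL1 or LYL1, the bridging protein LMO2 and RUNX1, and in mast cells it sustains genes of the IgE receptor and of histamine synthesis. In prostate cells GATA2 is expressed as well, where it works at enhancers beside FOXA1 and the androgen receptor.

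A peak was assigned to a gene when its summit lay inside the gene's RefSeq span or within 50 kb of either end, and overlapping peaks of the 4 lists were merged into regions. At least 1 GATA2 peak lay near 8 of the 10 genes, against 62.6% of all protein-coding genes. These were TAL1, LYL1, RUNX1, KIT, CD34, HHEX, MS4A2 and HDC, while LMO2 and GFI1B had none. Together they held 22 regions, of which 5 had a peak in all 4 lists. The share of all merged regions with a peak in all 4 lists is not given here, so the 5 of 22 does not set these regions apart. The genes with such a common region were LYL1, CD34, HHEX and MS4A2, that is 4 of 10, against 13.6% of all protein-coding genes. That count rests on the settings: it was 1, MS4A2, when each list was cut to its best 4974 peaks (9.16% of all genes), 2 at a q of 1e-05 or less (11.2%) and 1 within 10 kb (7.65%). Under the first 2 of these settings the common region left near MS4A2 lay inside a neighbouring gene, MS4A3. At that q the other gene was LYL1, whose region lay 47.3 kb away inside NFIX. Within 10 kb the region was another one, 0.031 kb past the MS4A2 span. A region in both untreated lists was found at 5 genes (24.3% of all genes) and a region in both JQ1 lists also at 5 (17.8% of all genes). These 10 genes were a median 27.0 kb long, close to the 24.1 kb of all genes, and held a median of 1.5 regions against 1.

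The lists differ far more by replicate than by treatment, and the member counts follow them. Untreated replicate 1 held 6902 peaks and untreated replicate 2 held 27373, and the JQ1 lists held 4974 and 32404 in the same order. Peaks lay near 5 of the 10 genes in untreated replicate 1 (25.7% of all genes), near 7 in untreated replicate 2 (54.6%), near 5 in JQ1 replicate 1 (18.2%) and near 7 in JQ1 replicate 2 (58.2%). Every region of the short replicate 1 lists near these genes was also in a replicate 2 list, since 0 of the 22 regions had a peak in replicate 1 alone. Of the 22 regions, 15 were present in both replicate 2 lists and 5 in both replicate 1 lists. The same counts over all merged regions are not given here, so these counts do not set the 10 genes apart. By gene, 6 of the 10 had peaks in both replicate 2 lists, against 50.5% of all genes.

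**Figure D1:**
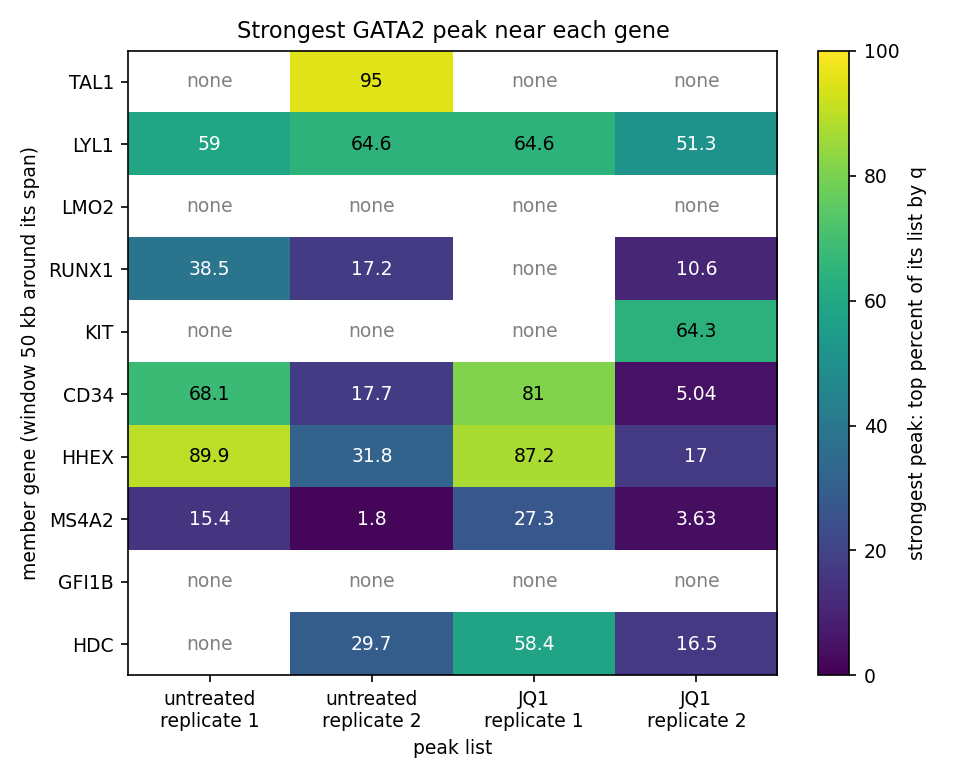
Strongest GATA2 peak within 50 kb of each of the 10 genes (rows) in each of the 4 peak lists (columns), given as the top percent of its list by the authors' q-value, so that a low number marks a strong peak. MS4A2 has the strongest peak of the 10 genes in each of the 4 lists, down to the top 1.80% in untreated replicate 2. In each list that peak lies inside the neighbouring gene MS4A3, 18.1 kb from MS4A2. LMO2 and GFI1B have none.

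No called region near these genes lay at a listed promoter of its own gene. Starts of neighbouring genes are not covered here, and RUNX1 has only 1 listed start. None of the 22 regions had its leading summit within 1 kb of a transcript start listed for its gene, and 0 of the 11 member promoters in the RefSeq table (GRCh38.p14, 9 of the 10 genes) held a summit in the 250 bases before the start. Among all 35116 promoters in the table, 0.493% held a summit in any list. A GATA hexamer is here the letters GATA after an A or a T and before an A or a G, searched on either strand (AGATAA is the form in MS4A2, and TGATAA the form in GFI1B). It was present in 22.3% of all these promoter stretches and in 4 of the 11 of the members. Of the promoters that did hold a summit, 66.5% had such a hexamer, against 22.1% of those without one. With so few promoters holding a summit, the count of 0 among 11 is near the background and not a result about these genes. The 4 member promoters with the letters are printed to show where the letters lie in them. Each is the 250 bases before the start, 5′ to 3′ on the gene's own strand, with the hexamer in capitals (a hexamer that begins with TTATC is read from the other strand).
TAL1: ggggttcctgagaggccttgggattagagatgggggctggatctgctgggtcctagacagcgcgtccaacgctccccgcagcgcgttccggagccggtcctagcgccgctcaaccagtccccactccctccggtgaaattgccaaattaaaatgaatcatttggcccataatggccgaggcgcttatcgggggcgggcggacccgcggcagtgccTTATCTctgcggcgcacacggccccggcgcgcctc
LYL1: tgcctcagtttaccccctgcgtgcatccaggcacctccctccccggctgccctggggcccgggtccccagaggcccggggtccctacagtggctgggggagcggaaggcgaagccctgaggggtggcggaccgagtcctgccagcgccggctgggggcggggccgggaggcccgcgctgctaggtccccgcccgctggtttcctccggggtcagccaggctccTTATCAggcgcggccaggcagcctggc
MS4A2: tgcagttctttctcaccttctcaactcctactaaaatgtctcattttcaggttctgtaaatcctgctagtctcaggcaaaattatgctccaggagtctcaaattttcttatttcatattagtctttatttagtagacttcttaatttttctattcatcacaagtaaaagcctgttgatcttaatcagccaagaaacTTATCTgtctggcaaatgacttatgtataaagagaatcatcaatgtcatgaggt
GFI1B: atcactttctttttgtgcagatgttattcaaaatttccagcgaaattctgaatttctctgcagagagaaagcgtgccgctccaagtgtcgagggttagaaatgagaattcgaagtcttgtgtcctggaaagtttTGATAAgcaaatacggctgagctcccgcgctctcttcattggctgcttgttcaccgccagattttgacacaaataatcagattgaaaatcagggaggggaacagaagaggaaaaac
The TAL1 stretch is chr1:47232336-47232585, with the hexamer beginning 35 bases before the start, and the nearest summit of any list lay 17.6 kb from that start. The LYL1 stretch is chr19:13102859-13103108, with the hexamer at 27 bases and the nearest summit 51.1 kb away. The MS4A2 stretch is chr11:60088414-60088663, with the hexamer at 54 bases and the nearest summit 7.19 kb away. The GFI1B stretch is chr9:132978444-132978693, before the downstream start of that gene's listed starts, with the hexamer at 116 bases and the nearest summit 201 kb away. TAL1 and LYL1 are read from the minus strand, MS4A2 and GFI1B from the plus strand. A match of letters is a description and does not make a site.

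The strongest of these regions lay within 50 kb of MS4A2, but inside a neighbouring gene. MS4A2, which codes for the beta chain of the high-affinity IgE receptor (NCBI gene 2206, chromosome 11, 60088259 to 60098467, hg38), had 4 regions, a number reached by 16.6% of all genes. The strongest of the whole set lay at 60069765 to 60070422, which is 18.1 kb before the span. It is inside MS4A3, a neighbouring gene of the same family, which is the nearer gene. Its −log10 q (q being the p-value of the peak adjusted for multiple tests, so that a high value marks a strong peak), as deposited by the authors, was 23.6 in untreated replicate 1, 128 in untreated replicate 2, 13.2 in JQ1 replicate 1 and 88.5 in JQ1 replicate 2. Those peaks stood in the top 15.4%, 1.80%, 27.3% and 3.63% of their lists, and their summits fell within 13 bp of each other. No other region of the 10 genes had a higher value in any of the 4 lists. Without it, the highest value in untreated replicate 1 was at RUNX1 (12.1), and in untreated replicate 2 at MS4A2 (63.7). With JQ1 it was at HDC in replicate 1 (7.02) and at CD34 in replicate 2 (76.4). The lists differ in depth and length, so a −log10 q or a rank is read here within its list and not as a change between lists.

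A second MS4A2 region, present in all 4 lists, sat at the far end of the gene at 60098324 to 60098851, with its leading summit 0.031 kb past the span. Replicates 1 and 2 had a −log10 q of 6.23 and 63.7 untreated, and of 4.02 and 56.7 with JQ1. Its summits spread over 110 bp. With a required reciprocal overlap of 50% neither this region nor the one inside MS4A3 counted as common any more, so that MS4A2 then had none. Another region, inside the gene at 60095652 to 60096343 and 7.19 kb after the start, had 3.81 and 61.5 untreated and 54.2 in JQ1 replicate 2, with no peak in JQ1 replicate 1. The last, 26.0 kb past the gene, was in untreated replicate 2 only, at 8.07. HDC, which codes for histidine decarboxylase, the enzyme that makes histamine (NCBI gene 3067, chromosome 15, 50241947 to 50265726), had a single region inside the gene at 50260946 to 50261457. It lay 4.58 kb after the start and had a −log10 q of 25.3 in untreated replicate 2, 7.02 in JQ1 replicate 1 and 37.2 in JQ1 replicate 2. HDC was the only member with a region in both JQ1 lists and no region in both untreated lists (3.27% of all genes), because untreated replicate 1 had no peak there. That call rests on 1 list and ended in a window of 100 kb, where HDC had a region in both untreated lists, and with lists of equal length, where it had none in both JQ1 lists.

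The blood stem cell surface genes had distal regions only. CD34, which codes for a surface sialomucin of blood progenitors and vessels (NCBI gene 947, chromosome 1, 207880972 to 207911125), had 3 regions, all upstream of its start and in no annotated gene. The one in all 4 lists lay at 207952772 to 207953169, 41.9 kb upstream, where replicates 1 and 2 had a −log10 q of 6.84 and 40.8 untreated and of 3.19 and 25.6 with JQ1. A neighbour at 207950853 to 207951116, 39.8 kb upstream, had no peak in untreated replicate 1, 35.4 in untreated replicate 2, 4.50 in JQ1 replicate 1 and 76.4 in JQ1 replicate 2. Of these adjoining regions the common one had the higher value in untreated replicate 2, and the neighbour had the higher value in both JQ1 lists. The remaining CD34 region, 36.6 kb upstream, was in JQ1 replicate 2 only, at 7.23. KIT, which codes for the receptor of stem cell factor (NCBI gene 3815, chromosome 4, 54657957 to 54740715), had 2 weak regions 31.8 and 41.3 kb beyond its end, both inside the long non-coding RNA gene LOC105377657 and both in JQ1 replicate 2 only, at 8.59 and 7.41. In both untreated lists the nearest summit to KIT was 73.6 kb from the span, outside the window.

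Among the transcription factor genes, RUNX1 held the most regions. RUNX1 codes for the runt-domain factor required for the first blood stem cells (NCBI gene 861, chromosome 21, 34787801 to 35049302), and with 262 kb it is the longest of the 10 genes. It had 8 regions, a number reached by 4.19% of all genes, or 2.21 regions per 100 kb of window against a median of 0.818 over all genes. Of these, 7 lay inside the span and 1 lay 14.4 kb outside. None was in JQ1 replicate 1, whose nearest summit was 333 kb away, so RUNX1 was the only member with a region in both untreated lists and none in both JQ1 lists. That is 1 gene of 10 against 9.73% of all genes, so it does not set the 10 genes apart. It ended with lists of equal length, where RUNX1 had no region in both untreated lists, and when each peak went to its nearest coding gene at any distance, where RUNX1 had 2 regions in all lists.

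The leading RUNX1 region, at 34983351 to 34983691, had a −log10 q of 41.5 in untreated replicate 2 and 50.5 in JQ1 replicate 2 and no peak in either replicate 1 list. The regions in both untreated lists were at 34957147 to 34957399 and 34971138 to 34971354. The first had 6.06 and 20.7 untreated and 2.50 in JQ1 replicate 2, where it ranked in the top 96.9%, near the end of the list. The second had 12.1 and 9.64 untreated and 6.60 in JQ1 replicate 2. The first had the higher value of the pair in untreated replicate 2, and the second in untreated replicate 1 and JQ1 replicate 2. Of the others, the regions starting at 34790780, 34944907 and 34947227 had 30.7, 16.6 and 10.03 in untreated replicate 2 and 31.5, 21.0 and 15.4 in JQ1 replicate 2. The remaining RUNX1 regions were in JQ1 replicate 2 only, at 10.8 inside the gene and 11.7 beyond it.

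HHEX, the gene of a homeobox factor of blood, vessel and liver progenitors (NCBI gene 3087, chromosome 10, 92689955 to 92695647), had 2 regions. The one within the gene, at 92692703 to 92693224 and 3.11 kb after the start, was in both replicate 2 lists only, with 23.6 untreated and 36.1 with JQ1. The one in all 4 lists, at 92727714 to 92728015, lay 32.2 kb past the gene with 3.81 and 17.2 untreated and 3.86 and 22.7 with JQ1. LYL1, the gene of a basic helix-loop-helix factor that pairs with LMO2 (NCBI gene 4066, chromosome 19, 13099033 to 13102858), had a single region in all 4 lists at 13051672 to 13051879. Its −log10 q was 8.22 and 9.17 untreated and 6.33 and 11.7 with JQ1, replicate 1 first, between the top 51.3% and the top 64.6% of its list. That region lay 47.3 kb from LYL1, just inside the 50 kb limit, and inside NFIX, the gene of a nuclear factor I protein, which is the nearer gene.

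TAL1, the close relative of LYL1 (NCBI gene 6886, chromosome 1, 47216290 to 47232335), had 1 weak peak in untreated replicate 2 only, with a −log10 q of 3.14 in the top 95% of that list. It lay 17.6 kb upstream of TAL1 and 0.162 kb from the neighbouring gene STIL. LMO2, the bridging protein's gene (NCBI gene 4005, chromosome 11, 33858576 to 33892076), had its nearest summits 54.2 kb away in both replicate 2 lists, just outside the limit, and at 277 and 530 kb in untreated and JQ1 replicate 1. GFI1B, the gene of a zinc-finger repressor of red cell and platelet formation (NCBI gene 8328, chromosome 9, 132945531 to 132993434), had its nearest summit of any list 179 kb away, in JQ1 replicate 2. For LMO2 and GFI1B the lists show no called peak within 50 kb, which is not the same as no binding at this depth.

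**Figure D2:**
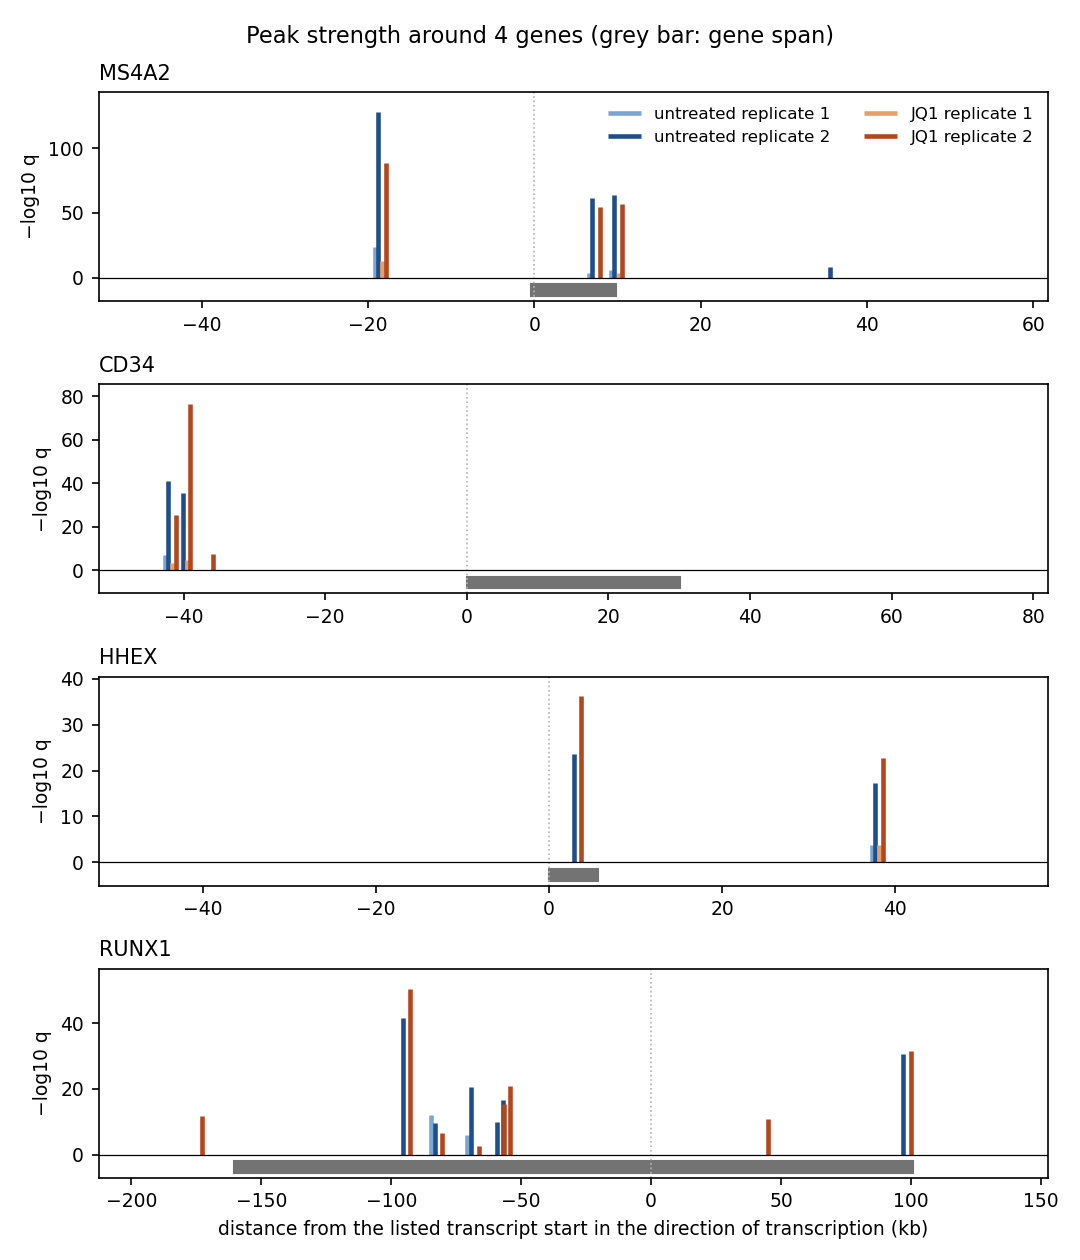
Deposited −log10 q of the strongest peak per list and region (vertical lines, coloured by list and shifted slightly sideways so that the lists can be told apart) against distance from a listed transcript start, in kb along the direction of transcription, for MS4A2, CD34, HHEX and RUNX1; the grey bar is the gene span. The vertical scales differ between panels: MS4A2 reaches 128, CD34 76.4, HHEX 36.1 and RUNX1 50.5, and CD34 has peaks upstream only.

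Treatment did not separate the lists near these genes. Peaks assigned to the 10 genes numbered 8 in untreated replicate 1, 20 in untreated replicate 2, 7 in JQ1 replicate 1 and 23 in JQ1 replicate 2, so the groups overlapped. The means were 14.0 ± 8.49 (SD, n = 2) untreated and 15 ± 11.3 (SD, n = 2) with JQ1, and the mean log2 number differed by 0.0045 (two-sided exact permutation p = 1; the smallest p that 2 lists against 2 can give is 0.333). As a share of all peaks of each list, those near the 10 genes made up 0.116% and 0.0731% untreated and 0.141% and 0.0710% with JQ1. The mean shares were 0.0945% ± 0.0303 (SD, n = 2) and 0.106% ± 0.0493 (SD, n = 2), with an exact permutation p of 1. The small difference in number changed sign with the calling limit and with the window, and with lists of equal length the difference was 0.40. None of the 22 regions was in both untreated lists and neither JQ1 list, against 0.620% of all merged regions, and none was in both JQ1 lists and neither untreated list, against 0.377%. With shares that small, a count of 0 among 22 is near the background.

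The reads behind these peaks could be recovered, because a deposited fold enrichment and p-value together fit a single whole number of precipitate reads over the summit and a local background. Summits are chosen as the highest point, which raises such counts, and the 95% exact Poisson intervals given here cover counting error only. At the MS4A2 region inside MS4A3 the summits carried 44 reads (32.0 to 59.1) in untreated replicate 1, 135 (113 to 160) in untreated replicate 2, 33 (22.7 to 46.3) in JQ1 replicate 1 and 92 (74.2 to 113) in JQ1 replicate 2. The lists differ in depth, for which the 2nd percentile of the local background over 500 sampled peaks of each stands here as a floor, at 1.25 and 1.96 reads untreated and 1.13 and 1.56 reads with JQ1. Over that floor the same region stood at 35.1 and 69 untreated and 29.3 and 58.9 with JQ1, a smaller gap than in reads. LYL1 carried 16 and 29 reads untreated and 16 and 19 reads with JQ1, which is 12.8, 14.8, 14.2 and 12.2 times the floor. That region had about the same height in all lists, in contrast to MS4A2, where both replicate 2 values were higher than both replicate 1 values.

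Reads at the summit could be set side by side for the 15 regions present in both replicate 2 lists. In reads, 12 of the 15 were lower with JQ1, with medians of 57 untreated and 46 with JQ1. Measured as reads over the floor, 6 were higher with JQ1 and 9 lower, with medians of 29.1 untreated and 29.4 with JQ1. The CD34 region 39.8 kb upstream stood in the top 21.0% of the untreated list and the top 5.04% of the JQ1 list, and its summit carried 94 reads (76.0 to 115) and 79 reads (62.5 to 98.5), or 48.0 and 50.6 times the floor. The local background there was 10.2 reads untreated and 3.12 reads with JQ1. At the RUNX1 region at 34957147 to 34957399, by contrast, the reads themselves differed, with 57 (43.2 to 73.9) untreated and 16 (9.15 to 26.0) with JQ1 in replicate 2, or 29.1 and 10.2 times the floor. Untreated replicate 1 had 23 reads there, 18.4 times its floor, and JQ1 replicate 1 had no peak. With 1 region picked out of 22 after its values were seen, that contrast is a description of these libraries and was not tested. In replicate 1 the 5 regions found in both lists had medians of 15.2 times the floor untreated and 12.4 with JQ1, and 4 of the 5 were lower with JQ1. Their summits carried only 15 to 44 reads untreated and 13 to 33 with JQ1. For neither replicate are the same counts of higher and lower regions given here over all regions. The directions therefore do not set these genes apart from the rest of the libraries.

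**Figure D3:**
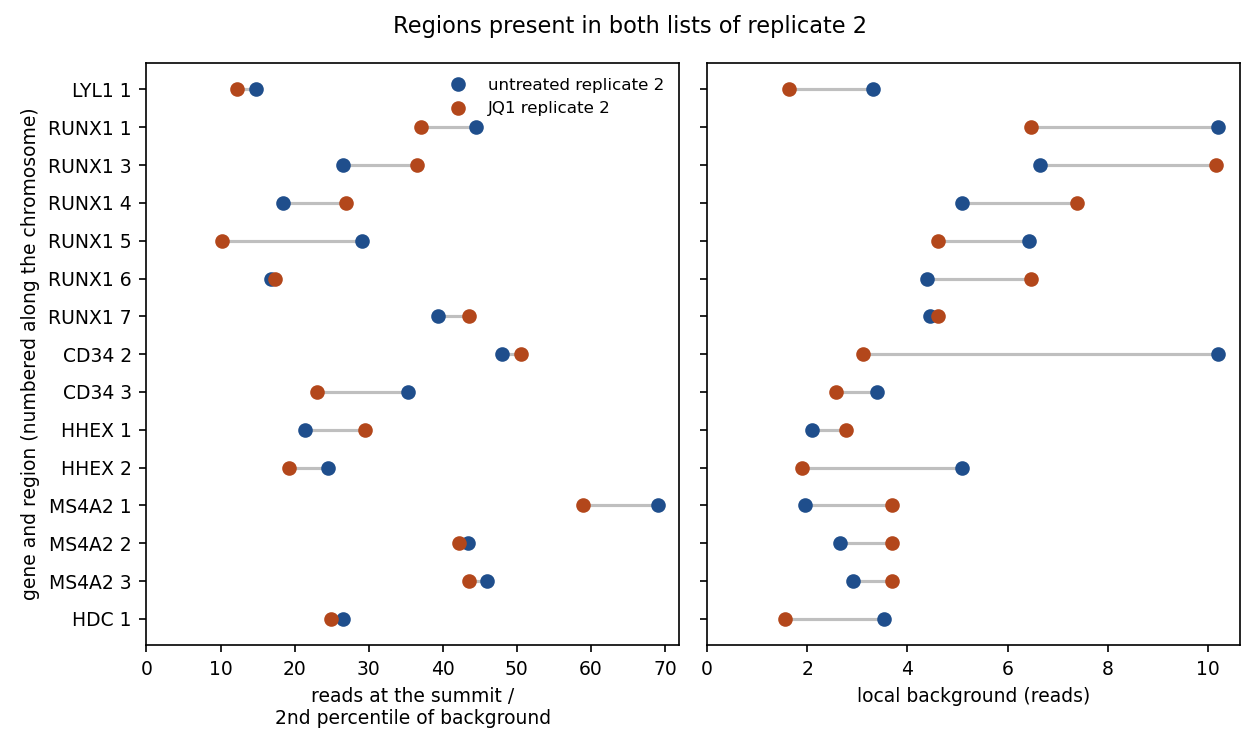
The 15 regions near these genes that had a peak in both replicate 2 lists, numbered along the chromosome within each gene. The left panel gives reads at the summit over the 2nd percentile of the list's background and the right panel the local background in reads. RUNX1 region 5 differs most on the left, at 29.1 untreated against 10.2 with JQ1, and CD34 region 2 differs mainly on the right, at 10.2 against 3.12 reads.

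Of 38 further blood, mast cell and vessel genes, 5 had a region in all 4 peak lists, or 13.2%, against 13.6% of all genes and 4 of the 10 targets. The difference between these gene lists was not tested. The count of 5 became 10 without JQ1 replicate 1 (23.6% of all genes) and 1 with lists of equal length (9.16%), and it was 3 both at a q of 1e-05 or less (11.2%) and within 10 kb (7.65%). Among 14 blood progenitor transcription factor genes these were ERG and ETV6, among 6 erythroid and megakaryocyte genes PF4, among 5 endothelial genes none, and among 13 mast cell and basophil genes IL1RL1 and MITF. ERG codes for an ETS factor that VCaP expresses through its fusion with TMPRSS2, and its leading common region inside the gene had a −log10 q of 18.0 and 55.7 untreated and 16.0 and 37.1 with JQ1. At ETV6, another ETS factor gene, the values were 22.5 and 82.3 untreated and 15.1 and 39.1 with JQ1. The common region near MITF, the gene of a mast cell and melanocyte factor, had 29.2 and 52.9 untreated and 5.47 and 38.1 with JQ1. Near PF4, the gene of a platelet chemokine, they were 8.50 and 33.9 untreated and 4.65 and 37.5 with JQ1, and near IL1RL1, the gene of the interleukin-33 receptor, 3.16 and 24.2 untreated and 3.78 and 26.8 with JQ1. In both replicate 2 lists the leading MS4A2 region was above all 5 of these. In replicate 1 it was below the common region of MITF in the untreated list and below those of ERG and ETV6 in the JQ1 list. Counting regions that were not common, ERG reached 40.7 in untreated replicate 1, also above the 23.6 of MS4A2.

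GATA2 itself had 2 regions, with a best −log10 q of 7.40 and 15.2 untreated, 17.2 in JQ1 replicate 2 and no peak in JQ1 replicate 1. Of 10 luminal prostate genes counted in the same way, 7 had a region in all 4 lists, against 4 of the 10 blood-lineage targets. Those 7 include KLK2 and KLK3, which are neighbours and share their regions. With lists of equal length the counts were 6 luminal genes and 1 target (9.16% of all genes). At a q of 1e-05 or less they were 6 and 2 (11.2%), and within 10 kb 4 and 1 (7.65%). The leading common region of KLK3, the gene of prostate-specific antigen, had 76.8 and 204 untreated and 41.4 and 167 with JQ1, above every region of the blood-lineage genes in the same list. Among genes with a span under 50 kb, 4 of the 8 members of that size had a region in all 4 lists, against 8.85% of all genes of that size. These were the same genes as before, LYL1, CD34, HHEX and MS4A2, so the count has the same limits. The common regions of LYL1, CD34 and HHEX lay 47.3, 41.9 and 32.2 kb outside the spans, and within 10 kb only MS4A2 kept one. In the same size class 4 of the 8 had a region in both untreated lists (17.0% of all), 5 had one in both JQ1 lists (11.6%) and 6 had a peak in any list (53.0%).

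**Figure D4:**
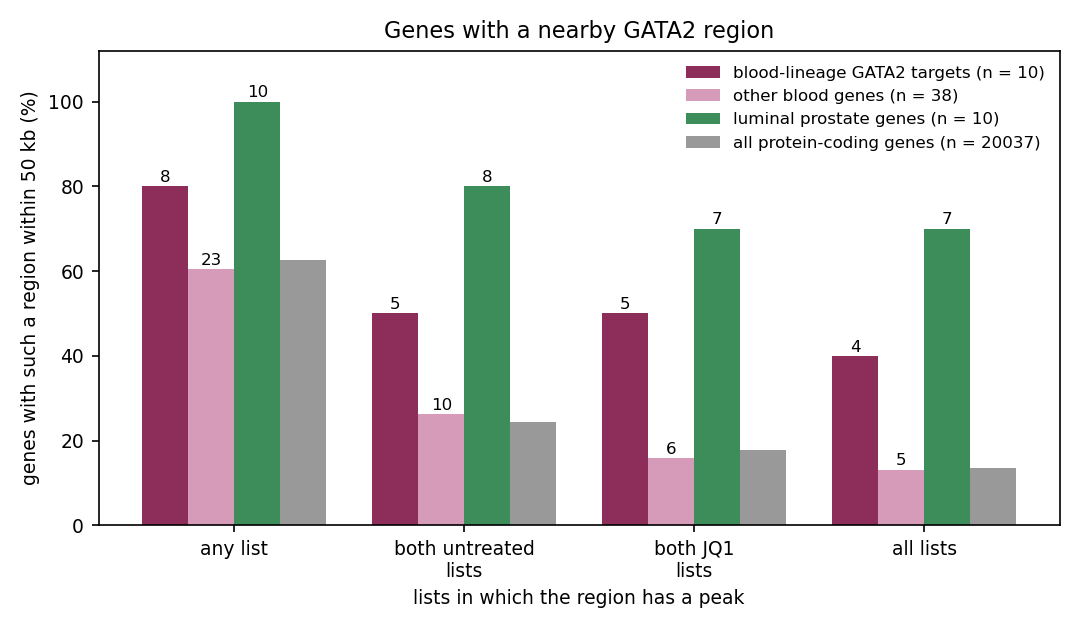
Percent of genes with a GATA2 region within 50 kb of the span, by the lists in which the region has a peak, for the 10 blood-lineage targets, 38 other blood genes, 10 luminal prostate genes and all 20037 protein-coding genes; the number of genes stands above each coloured bar. The blood-lineage targets lie between the luminal genes and all genes in each category, at 4 of 10 for regions in all lists against 7 of 10 luminal genes and 13.6% of all genes. With lists of equal length, not drawn, they were 1 of 10 against 6 of 10 and 9.16%.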

How the data were processed

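Peak lists of 4 GATA2 precipitates were analysed. Tools named are MACS2, Bowtie2 and Picard, with build hg38, per the submitters' processing notes, with versions not given in the sources used here. Each list belongs to 1 sample, per the labels. The deposited values are the authors' whole-number score (not used), a fold enrichment at the summit, and p-values and q-values given as −log10. They were not scaled between lists, so they are given side by side but rank peaks within a list only. Only chromosomes 1 to 22, X and Y were used, each line counting as 1 peak, which left out 8 lines of untreated replicate 2 and 10 of JQ1 replicate 1. Peaks overlapping by at least 1 bp were merged. Gene spans and promoters came from RefSeq tables of GRCh38.p14, and all 10 genes matched. No genome sequence was used here, so region sequences and exons were not analysed here.

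Reads at a summit were solved from fold = (reads + 1) / (background + 1) and the Poisson tail of the same pair. In 500 peaks checked per list, 100% matched within 0.001 in log10 p. The floor of a list is the 2nd percentile of the background over those 500 peaks. In untreated replicate 2 the precipitate first had to be scaled by 0.686. That form and the scale were found by trying several on the deposited values. The functions were tested on simulated data. Peak numbers were compared by exact permutation (numpy 2.4.6, scipy 1.17.1). Members and lists were chosen with earlier results of these data known. All 10 members are named, as are GATA2, ERG and at most 4 genes per other list, first in alphabetical order among those with a region in all 4 lists.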

Additional observations from a re-analysis of the deposited data

How the results depend on the processing

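The difference in peak number near the 10 genes changed sign with the setting. On the log2 scale, JQ1 minus untreated was -0.42 for peaks with a q of 1e-05 or less, -0.50 within 10 kb, -0.21 within 100 kb and -0.12 for peaks whose nearest coding gene was a member, but 0.40 with lists of equal length. Leaving out 1 list at a time moved it from -0.85 to 0.86, and it was 0.20 without replicate 1 and -0.19 without replicate 2. The difference in percent of peaks was -0.0155, -0.0126, -0.00955 and -0.00309 under the same 4 settings, 0.0302 with lists of equal length, from -0.0235 to 0.0462 with 1 list left out, -0.00209 without replicate 1 and 0.0248 without replicate 2. No exact permutation p was below 0.333. The number of genes with a region in all 4 lists was 4 (13.6% of all genes). It fell to 2 at a q of 1e-05 or less (LYL1 and MS4A2, 11.2%), where the regions lay inside the neighbouring genes NFIX and MS4A3. The number was 1 (MS4A2) with lists of equal length (9.16%), again by the region inside MS4A3. It was also 1 (MS4A2) within 10 kb (7.65%), by the region at the far end of the gene. Genes with a region in both untreated lists numbered 2 with lists of equal length (13.5% of all genes) and 2 within 10 kb (13.4%). Genes with a region in both JQ1 lists numbered 3 at a q of 1e-05 or less (14.3% of all genes). They numbered 2 with lists of equal length (12.3%) and 2 within 10 kb (10.3%). The 22 regions became 10 with lists of equal length, 11 within 10 kb and 10 without replicate 2. By nearest gene, 4 members again had a common region (11.0% of all genes), with RUNX1 in place of LYL1. Leaving out both lists of a replicate was chosen after seeing the data. Replicate numbers are not stated to mark a shared culture. With the replicate block the differences stayed at 0.0045 and 0.0114 (exact p = 1, smallest possible 0.5). Over 20037 genes the replicate differences in peak number correlated at 0.863 between treatments. Both replicate 2 lists were far longer than the replicate 1 lists, so that correlation cannot tell whether replicates were paired.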
